A study of Mus musculus with 4 samples.

Results

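The 10 genes described here encode the Wnt co-receptors and the proteins that set how much receptor stays at the cell surface. They are Lrp5, Lrp6, Lgr4, Lgr5, Lgr6, Znrf3, Rnf43, Kremen1, Ryk and Ptk7, chosen by name, and they are read by 14 of the 55681 probes and make up 10 of the 24278 genes on the array. Gene expression was measured on 4 single-colour Agilent arrays, 1 for each of 4 groups of freshly sorted progenitors from adult mouse bone marrow: SFRP5 LSK, WT LSK, SFRP5 CLP and WT CLP. SFRP5 stands for SFRP5-transgenic mice and WT for wild-type littermates, and SFRP5 itself is a secreted protein that binds Wnt ligands. LSK cells (Lin- c-kitHi Sca-1+) contain the haematopoietic stem cells and multipotent progenitors, and the CLP sort (Lin- c-kitLo Sca-1Lo IL7Rα+) is enriched for common lymphoid progenitors. Neither the promoter and sequence of the transgene nor the number and sex of the mice is stated in the labels. The comparison of SFRP5 with WT asks which genes differ with the transgene, and each genotype difference below is a difference between the arrays so labelled.

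Canonical Wnt ligands bind a Frizzled receptor together with LRP5 or LRP6, whose tails are then phosphorylated and recruit Axin, so that beta-catenin is no longer destroyed. The membrane ubiquitin ligases ZNRF3 and RNF43 remove Frizzled and LRP6 from the surface, and R-spondins bound to LGR4, LGR5 or LGR6 remove the ligases in turn and so keep receptors in place. KREMEN1 binds the secreted inhibitor DKK1 together with LRP6 and takes the co-receptor inside the cell, whereas RYK and PTK7 are receptors with inactive kinase domains best known from Wnt signalling that does not run through beta-catenin. Znrf3, Rnf43 and Lgr5 are themselves known target genes of the pathway in other tissues.

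Each level below is the log2 of the scanner's processed intensity relative to the 75th percentile of its own array, so 0 is the signal of that percentile, and levels are compared between arrays for the same probe, never between probes. The percentile lay between 227.2 and 290.9 intensity units, and between 65.3% and 70.1% of probes were well above background by the scanner software's flag. With 1 array per group there is no replicate, no test and no p-value, and so few arrays limit the precision. The only spread available is that between replicate spots of 399 other probes on the same array, read in the broad range of signal that holds the gene. It was a median SD of 0.40 to 0.50 at the lowest signals and of 0.054 to 0.073 above the 75th percentile, it is given below as the spot SD of a difference, and it covers neither cells, mice nor amplification. The array's 1 Sfrp5 probe stood at -0.31 in SFRP5 LSK against -0.23 in WT LSK, and at -0.0041 in SFRP5 CLP against -0.021 in WT CLP, so it did not separate SFRP5 from WT arrays. Kit stood at 3.47 and 2.75 on the CLP arrays against 5.18 and 5.08 on the LSK arrays, Ly6a, the Sca-1 gene, at -0.70 and -0.84 against 1.02 and 1.35, and Il7r at 3.13 and 2.52 against 0.89 and -0.51 (SFRP5 and WT in each pair). Flt3, which marks common lymphoid progenitors, was lower on the CLP arrays, at 0.32 and 0.24 against 3.10 and 2.95. All 5 lymphoid progenitor markers were above background on every array. Their summed signal was 7.41 and 6.83 in CLP against 6.95 and 6.27 in LSK, in the same order. Of 7 LSK markers, 6 were above background on each LSK array, and Slamf1, a stem cell marker, on none of the 4 arrays. The summed signal of the 7 was 6.46 on both LSK arrays, against 3.77 in SFRP5 CLP and 3.06 in WT CLP. Xist, the RNA of the inactive X chromosome, was present on the SFRP5 arrays (4.99 in LSK, 4.50 in CLP) and not well above background on the WT arrays. The 4 Y-linked genes measured were above background on all 4 arrays, so both SFRP5 arrays carried Xist and Y-linked signal. Each was lower on the SFRP5 array than on the WT array of the same sort. Sex-linked genes thus move with every genotype difference below, and their part in it was not tested.

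All 10 genes were above background on the WT CLP array, 8 on SFRP5 CLP, and 7 on each of SFRP5 LSK and WT LSK. Of their 14 probes, 12 were above background on WT CLP, 9 on SFRP5 CLP and 8 on each LSK array. The share of all probes was 65.7% on WT CLP, 66.1% on SFRP5 CLP, 65.3% on SFRP5 LSK and 70.1% on WT LSK. The lowest level that passed the flag was -5.74 on WT CLP, -5.16 on SFRP5 CLP, -5.08 on SFRP5 LSK and -5.07 on WT LSK. Lrp5, Lrp6, Lgr4, Lgr6, Znrf3, Kremen1 and Ptk7 were above background on all 4 arrays, as were 62.7% of all genes. Of the 10, 0 were below background throughout, as were 22.6% of all genes. Lgr5 was above background on both CLP arrays and on neither LSK array, a pattern held by 0.927% of all genes. Rnf43 and Ryk were above background on the WT CLP array alone, as were 0.968% of all genes. So by this flag the presence of Lgr5 followed the sort, whereas that of Rnf43 and Ryk was limited to 1 array of the 4. A looser flag, for a positive and significant signal, was also set for Lgr5 on both LSK arrays. It was also set for Rnf43 on WT LSK and SFRP5 CLP, and for Ryk on SFRP5 CLP. In bulk samples such as these, fewer cells of a type and less RNA per cell cannot be told apart.

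**Figure D1:**
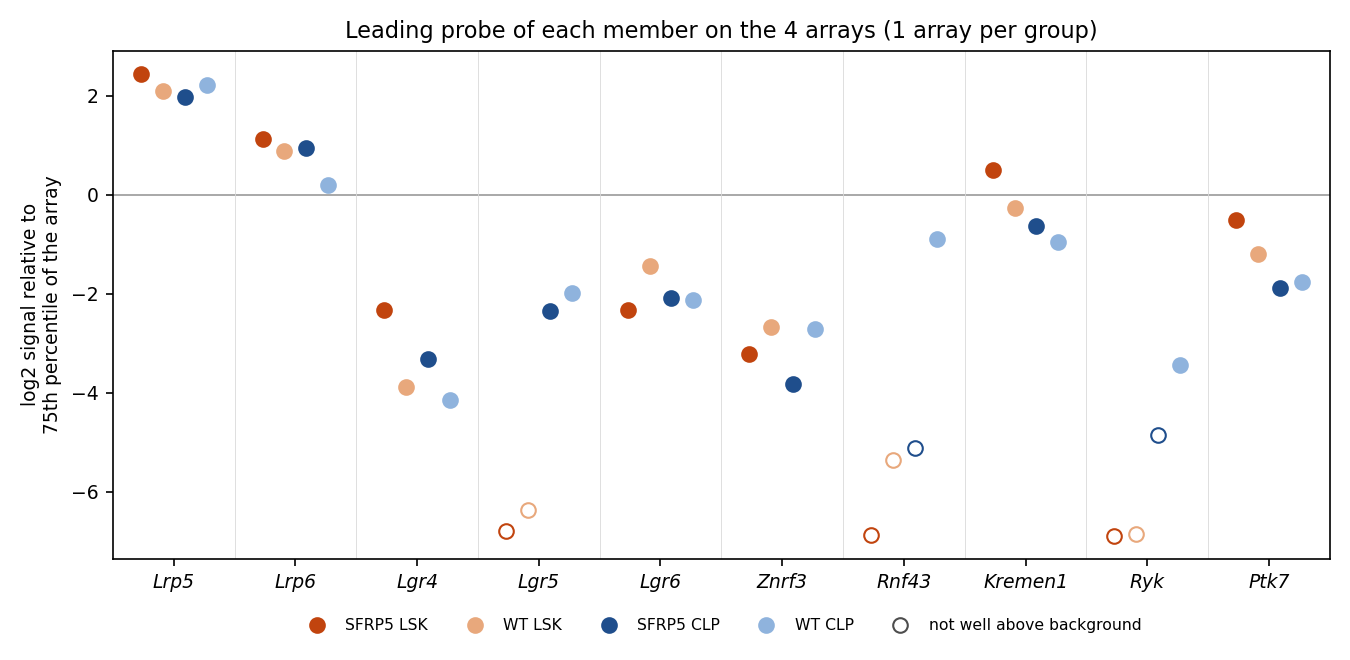
Level of the leading (brightest) probe of each of the 10 genes on the 4 arrays, on a log2 scale relative to the 75th percentile of the array, with open circles where the probe was not well above background. Lgr5 is filled on both CLP arrays alone, Rnf43 and Ryk are filled on WT CLP alone, and the other 7 genes are filled on all 4 arrays.

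Rnf43 and Ryk are the genes seen above background on 1 array alone, and their promoters are shown as they stand in RefSeq (build GRCm38.p6), 250 bases up to the annotated start, 5′ to 3′ on the plus strand. Capitals mark CG dinucleotides. Rnf43 has 2 annotated starts on chromosome 11 and Ryk has 1 on chromosome 9.
Rnf43, chr11:87662837-87663086: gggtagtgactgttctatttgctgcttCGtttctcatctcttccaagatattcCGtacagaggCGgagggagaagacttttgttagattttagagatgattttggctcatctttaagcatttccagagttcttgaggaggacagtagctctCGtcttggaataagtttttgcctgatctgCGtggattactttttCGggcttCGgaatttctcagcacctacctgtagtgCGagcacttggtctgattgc
Rnf43, chr11:87699647-87699896: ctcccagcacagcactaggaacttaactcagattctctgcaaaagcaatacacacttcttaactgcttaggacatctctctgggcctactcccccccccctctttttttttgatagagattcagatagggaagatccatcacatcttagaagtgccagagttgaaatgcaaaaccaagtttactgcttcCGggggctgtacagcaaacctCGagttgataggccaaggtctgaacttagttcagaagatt
Ryk, chr9:102834670-102834919: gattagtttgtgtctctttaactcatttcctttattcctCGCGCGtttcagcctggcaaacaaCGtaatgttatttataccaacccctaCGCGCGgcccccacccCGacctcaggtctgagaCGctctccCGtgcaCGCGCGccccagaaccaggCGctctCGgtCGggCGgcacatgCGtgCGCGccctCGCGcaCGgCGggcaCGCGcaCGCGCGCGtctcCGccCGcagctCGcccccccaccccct
The Ryk promoter held 33 CG dinucleotides, a number reached by 4.03% of the 32851 promoters in the table, whose median was 6. The Rnf43 promoters held 8 and 2. Promoters of 5 of the 10 genes were in the table, 6 windows in all, and the other 3 windows, of Lgr4, Lgr6 and Ptk7, held 10, 16 and 14. None of the 6 windows contained, on either strand, the core word of TCF and LEF factors, taken as CTTTG followed by a pair of bases that are each A or T, against 14.8% of all promoters of that length. This says only that these letters are not in these windows.

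Among the co-receptors, Lrp5 varied least between arrays of all 10 genes, by 0.48 from the highest to the lowest. It stood at 2.44 in SFRP5 LSK and 2.10 in WT LSK, and at 1.97 in SFRP5 CLP and 2.22 in WT CLP, read by 1 probe (A_66_P104713, chromosome 19). SFRP5 LSK was the highest, and the neighbouring levels of WT CLP, WT LSK and SFRP5 CLP differed by less than 2 spot SDs. The SFRP5 minus WT difference was 0.34 in LSK (spot SD 0.093), or 1.27-fold higher, and -0.25 in CLP (spot SD 0.080), so the transgenic array was the higher of the pair in LSK and the lower in CLP.

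Lrp6, the co-receptor on which the ligases and KREMEN1 are best known to act, was read by 2 probes on chromosome 6 that did not give the same pattern. The leading probe (A_55_P2118391) stood at 1.13 in SFRP5 LSK, 0.88 in WT LSK, 0.94 in SFRP5 CLP and 0.19 in WT CLP, so WT CLP lay apart from the other 3 arrays. The further probe (A_55_P2041360) stood at 1.23 in SFRP5 LSK, 0.15 in WT LSK, -0.23 in SFRP5 CLP and -0.082 in WT CLP, so there SFRP5 LSK lay apart. Between genotypes the difference was 0.25 in LSK by the leading probe (spot SD 0.099) and 1.08 by the further one. In CLP it was 0.75 by the leading probe (spot SD 0.093) and -0.15 by the further one. Both probes are annotated to the same transcript record (NM_008514) and both were above background on all 4 arrays, and a single value for Lrp6 in either genotype comparison is therefore uncertain.

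**Figure D2:**
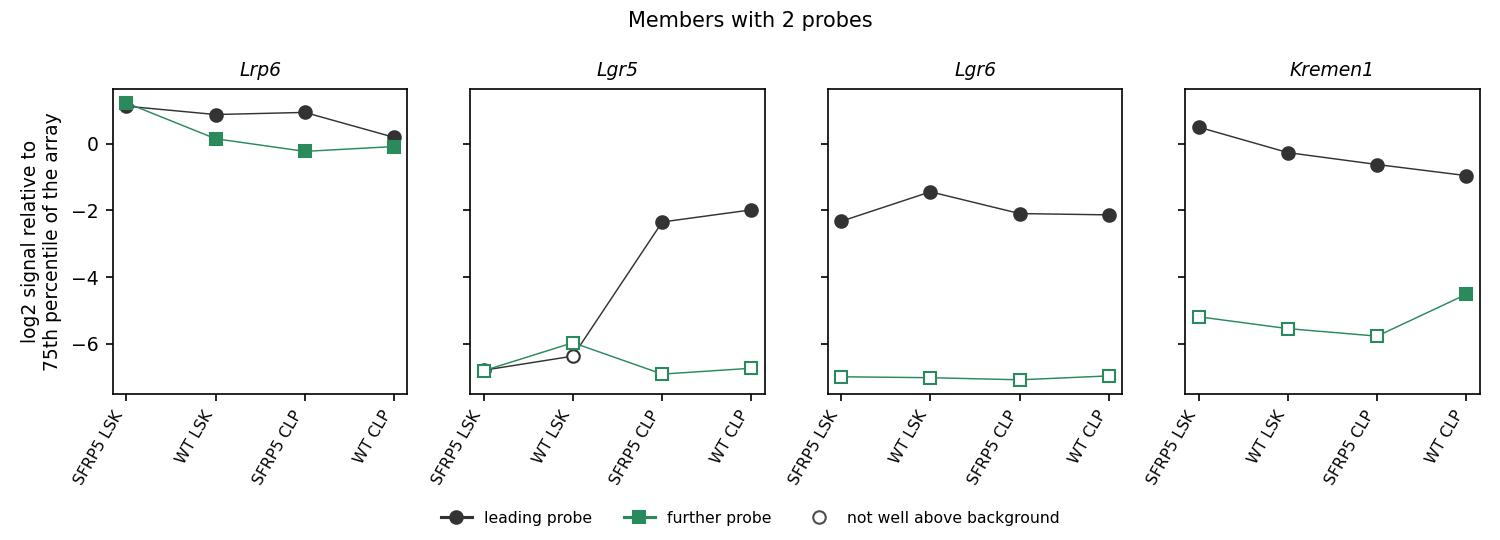
The 4 genes read by 2 probes, each probe's log2 level relative to the 75th percentile of the array on the 4 arrays, with open markers where the probe was not well above background; lines join values of 1 probe and carry no order in time. The leading Lrp6 probe is lowest on WT CLP and the further one highest on SFRP5 LSK, and the further probes of Lgr5 and Lgr6 are open on all 4 arrays.

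The R-spondin receptors differed in where they were seen. Lgr4 (A_55_P2408848, chromosome 2) was above background on all 4 arrays at low signal, at -2.32 in SFRP5 LSK and -3.88 in WT LSK, and at -3.31 in SFRP5 CLP and -4.15 in WT CLP. Those levels correspond to processed intensities of 55.4, 18.8, 29.3 and 12.8 in the same order. Both SFRP5 arrays lay above both WT arrays, and the WT arrays differed from each other by less than 2 spot SDs. SFRP5 minus WT was 1.55 in LSK, or 2.94-fold higher (spot SD 0.30), and 0.84 in CLP, or 1.79-fold higher (spot SD 0.48). The second of these is under 2 spot SDs, but WT CLP falls just inside the lowest range of signal, below -4. The SD on that array was 0.44 in that range and 0.20 from -4 to -2. Under normexp, a model-based background correction run here on the median spot signal with an offset of 50, the differences were 0.55 in LSK and -0.046 in CLP. That offset is added to every signal before the log, so under normexp differences between dim signals shrink by construction.

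Lgr5, a stem cell marker of several epithelia, was seen through 1 of its 2 probes on chromosome 10 and in the CLP sort alone. That probe (A_55_P2126192, NM_010195) stood at -2.34 in SFRP5 CLP and -1.98 in WT CLP, with processed intensities of 57.3 and 57.6. On the LSK arrays it was not well above background, with intensities of 2.51 in SFRP5 LSK and 3.35 in WT LSK. Lgr5 was at least 8.52-fold higher in CLP than in LSK in WT and at least 6.65-fold higher in SFRP5, each bound being taken against the lowest signal that passed the flag on the LSK array. Under normexp the bounds were 0.95 and 0.76 on the log2 scale and no longer reached 2-fold. The CLP arrays did not differ from each other beyond 2 spot SDs, at -0.36 for SFRP5 minus WT (spot SD 0.21). The further probe (A_52_P30169), annotated to ENSMUST00000105272, was below background on all 4 arrays. A leading probe seen on 2 or more arrays with every further probe below background throughout was found for 15% of the 6222 genes with such a leading probe and more than 1 probe.

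Lgr6 was highest in WT LSK. Its leading probe (A_52_P616580, chromosome 1) stood at -2.32 in SFRP5 LSK and -1.44 in WT LSK, and at -2.09 in SFRP5 CLP and -2.13 in WT CLP. WT LSK lay above the other 3 arrays, which did not differ beyond 2 spot SDs between neighbours. The SFRP5 minus WT difference was -0.88 in LSK (spot SD 0.24), or 1.85-fold lower, and 0.039 in CLP (spot SD 0.27), where the sign turned under normexp and under the mean of both probes. The further probe (A_52_P75777, annotated to AK040883) was below background on all 4 arrays. Within LSK, Lgr4 was thus higher and Lgr6 lower on the SFRP5 array, while Lgr5 was below background on both.

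The ubiquitin ligases were both lower in SFRP5 CLP than in WT CLP. Znrf3 (A_55_P2145252, chromosome 11) stood at -3.23 in SFRP5 LSK and -2.66 in WT LSK, and at -3.83 in SFRP5 CLP and -2.72 in WT CLP, with processed intensities of 29.6, 43.6, 20.4 and 34.6. Both SFRP5 arrays lay below both WT arrays, the reverse of Lgr4. The difference was -1.12 in CLP, or 2.17-fold lower (spot SD 0.27), and -0.56 in LSK (spot SD 0.30), a value under 2 spot SDs. Under normexp the CLP difference was -0.54 and no longer reached 2-fold.

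Rnf43 (A_55_P2079619, chromosome 11) was well above background on WT CLP alone. Its processed intensity was 2.35 in SFRP5 LSK and 6.76 in WT LSK, both not well above background, and 8.39 in SFRP5 CLP, also not well above background, against 123 in WT CLP. The WT CLP level was -0.88 and that of SFRP5 CLP was -5.11. Rnf43 was 18.8-fold lower in SFRP5 CLP than in WT CLP, a bound taken against its own SFRP5 CLP signal (spot SD 0.41). It was at least 18.2-fold higher in WT CLP than in WT LSK, against the lowest signal that passed the flag there. The bounds kept their sign and stayed past 2-fold under every scaling and background correction tried, at between -4.23 and -1.65 on the log2 scale for the genotype bound. The probe was printed as 1 spot per array, as were all 14, so the WT CLP value rests on 1 spot.

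Kremen1 (leading probe A_65_P01415, chromosome 11) stood at 0.50 in SFRP5 LSK and -0.26 in WT LSK, and at -0.62 in SFRP5 CLP and -0.95 in WT CLP. The 4 arrays were ordered as just given, and every neighbouring pair differed by more than 2 spot SDs. SFRP5 minus WT was 0.76 in LSK (spot SD 0.12), or 1.70-fold higher, and 0.33 in CLP (spot SD 0.15). In SFRP5 mice Kremen1 was 2.18-fold lower in CLP than in LSK, a difference of -1.12 (spot SD 0.12). The further probe (A_55_P2046149), annotated to the same record NM_032396, was above background on WT CLP alone, at an intensity of 9.96. Averaging both probes turned the CLP genotype difference to -0.46 and the CLP minus LSK difference in WT to 0.17, so the direction in those comparisons depends on the probe.

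The pseudokinase receptors showed unlike patterns. Ryk (A_51_P384148, chromosome 9) stood at -6.89 in SFRP5 LSK, -6.85 in WT LSK and -4.85 in SFRP5 CLP, none of them well above background, and at -3.44 in WT CLP. It was 2.67-fold lower in SFRP5 CLP than in WT CLP, a bound taken against its own SFRP5 CLP signal. It was at least 3.10-fold higher in WT CLP than in WT LSK, and neither bound reached 2-fold under normexp. Ptk7 (A_51_P496381, chromosome 17), a regulator of planar cell polarity, stood at -0.52 in SFRP5 LSK and -1.20 in WT LSK, and at -1.88 in SFRP5 CLP and -1.76 in WT CLP. Ptk7 was lower on both CLP arrays than on both LSK arrays, and the CLP arrays did not differ from each other beyond 2 spot SDs. SFRP5 minus WT was 0.69 in LSK, or 1.61-fold higher (spot SD 0.13), and -0.12 in CLP (spot SD 0.15).

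Set against all genes, the genotype comparison in LSK counted 1 of the 7 genes above background on both arrays as 2-fold higher (Lgr4) and 0 as 2-fold lower, where 6.57% of 16127 genes were 2-fold higher, 7.19% 2-fold lower and 13.8% either. The median difference of the 7 was 0.34, against 0.022 over all genes, with Lrp5, Lrp6, Lgr4, Kremen1 and Ptk7 above 0 and Lgr6 and Znrf3 below it. In CLP, 1 of 8 was 2-fold lower (Znrf3) and 0 were 2-fold higher, where 4.3% of 15943 genes were 2-fold lower, 4.26% 2-fold higher and 8.56% either. The median of the 8 was -0.040, against -0.037 over all genes. Rnf43 and Ryk were 2-fold lower by a bound in CLP, as were 2.05% of the genes above background on either CLP array, and they are outside that median. A count of 1 gene among 7 or 8 is too small to be set apart from these shares.

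**Figure D3:**
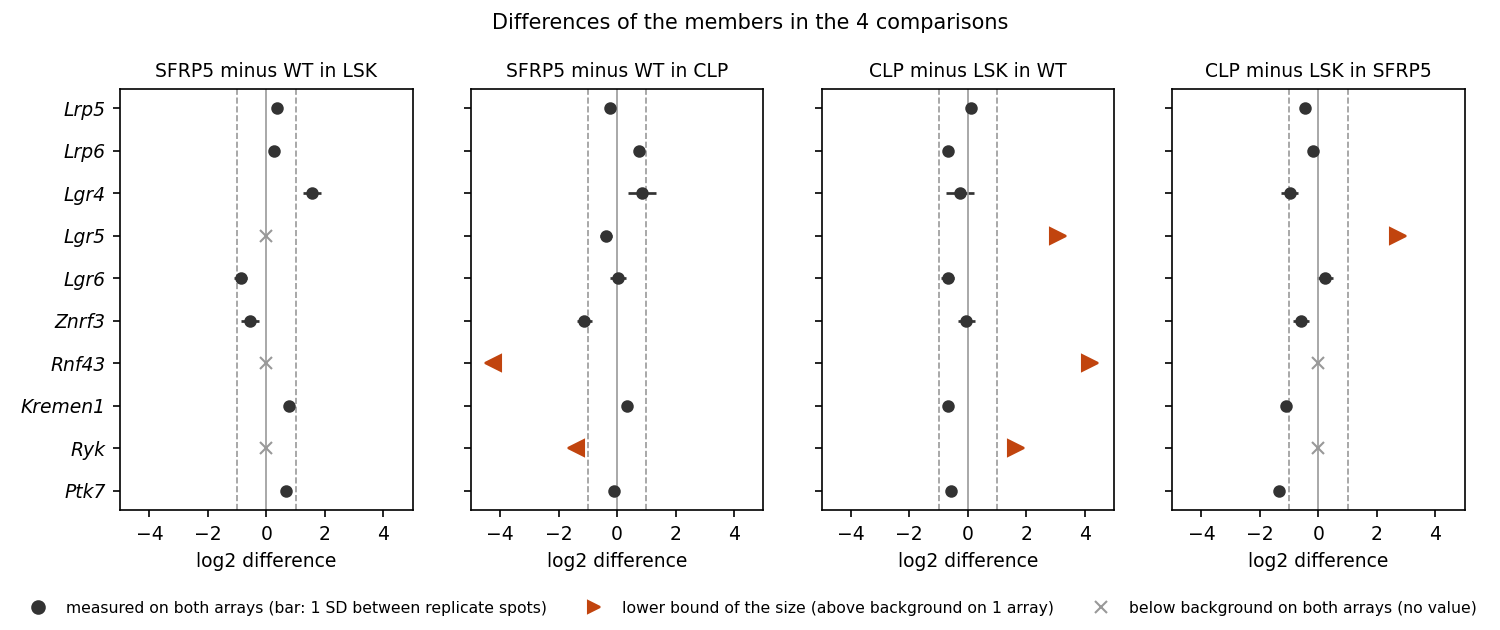
Log2 difference of each of the 10 genes in the 4 comparisons, as filled circles with a bar of 1 spot SD where the gene was above background on both arrays, as triangles pointing away from 0 at a lower bound of the size, and as crosses, which carry no value, where it was below background on both; dashed lines mark 2-fold. Lgr4 in LSK and Znrf3 in CLP lie past 2-fold between genotypes, and the triangles of Rnf43 and Ryk point to lower values in SFRP5 CLP.

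Between the sorts, 0 of 7 genes measured in WT and 2 of 7 measured in SFRP5 (Kremen1 and Ptk7, both lower in CLP) differed 2-fold. Over all genes, 32.1% of 16018 differed 2-fold in WT, 17.8% being higher and 14.3% lower in CLP, and 22.5% of 15714 in SFRP5, 11.5% being higher and 11% lower. The median CLP minus LSK difference of the 7 genes was -0.56 in WT and -0.60 in SFRP5, against 0.016 and 0.024 over all genes. In WT, Lrp6 (-0.68 by its leading probe and -0.23 by its further probe), Lgr6 (-0.69), Kremen1 (-0.69, by its leading probe) and Ptk7 (-0.56) were lower in CLP, by more than 2 spot SDs for the leading probes, and the values of Lrp5 (0.12), Lgr4 (-0.27) and Znrf3 (-0.051) were under 2 spot SDs and turned sign with the scaling. In SFRP5, Lrp5 (-0.48), Lgr4 (-0.99), Znrf3 (-0.60), Kremen1 (-1.12) and Ptk7 (-1.36, or 2.58-fold lower) were lower in CLP by more than 2 spot SDs, and under normexp Kremen1 (-0.95) and Ptk7 (-0.93) no longer reached 2-fold. Lrp6 was at -0.19 there by its leading probe and -1.46 by its further probe, and Lgr6 at 0.23 lay under 2 spot SDs.

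The genes that were higher by a bound between sorts were Lgr5 in both genotypes and Rnf43 and Ryk in WT, each higher in CLP, where 2.14% of genes above background on either WT array and 3.36% on either SFRP5 array were 2-fold higher by a bound. Markers of several other blood cells were also higher in the CLP sort. The summed signal of 5 mast cell and basophil markers was 5.19 in SFRP5 CLP and 5.71 in WT CLP, against 0.37 in SFRP5 LSK and 0.36 in WT LSK, and that of 5 B cell markers 6.40 and 6.15 in CLP against 2.45 and 1.83 in LSK. Of 3 neutrophil markers, the summed signal was 0.58 in SFRP5 LSK against -0.89 in WT LSK, where Ltf was below background. It was 0.034 in SFRP5 CLP against 1.65 in WT CLP. The summed signal of 5 T cell markers was lower in CLP, at 2.87 in SFRP5 and 2.79 in WT, against 3.25 and 3.69 in LSK. That of 3 megakaryocyte markers was 2.77 and 2.79 in CLP against 1.91 and 1.79 in LSK, and that of 5 endothelial markers 2.10 and 2.55 against 2.69 and 2.56. The summed signal of 4 myeloid markers was 7.91 and 7.67 in CLP against 5.61 and 4.83 in LSK. Of 8 stromal markers, 5 to 7 were above background and Pdgfra was below it on all 4 arrays. The part of these cells in the results was not tested.

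The partners of these genes were followed in 5 lists of 64 genes. Counts at 2-fold in these lists stand beside the shares of all genes that differed 2-fold. Those shares were 13.8% in LSK and 8.56% in CLP between genotypes. Between sorts they were 32.1% in WT and 22.5% in SFRP5. None of the 4 R-spondin genes, the ligands of the LGR receptors, was above background on any array, nor were Dkk1, Dkk2 and Sost, which encode secreted inhibitors of LRP5 and LRP6, or Dkk3 of the same family. Dkk4, a further inhibitor of LRP6, was above background on all 4 arrays, at -3.40 in SFRP5 LSK and -3.49 in WT LSK, and at -3.14 in SFRP5 CLP and -3.01 in WT CLP, and Sostdc1, a relative of Sost, was above it on 2. Of the 14 ligands and inhibitors, 3 were measured in LSK and 2 in CLP, and 0 of them differed 2-fold between genotypes, with list medians of 0.093 and -0.0088. In LSK, Igfbp4, a secreted protein that inhibits Wnt signalling, was the highest (0.13) and Kremen2, the second Kremen, the lowest (-0.23). Apcdd1, a membrane inhibitor present on the SFRP5 LSK array alone, was 2.09-fold higher there than in WT LSK. That bound was taken against its own WT LSK signal, and 1.54% of genes were 2-fold higher by a bound. In CLP, Igfbp4 was the highest (0.12) and Dkk4 the lowest (-0.13).

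Of the 10 Frizzled genes, 5 were measured in LSK and 4 in CLP. In LSK, Fzd5 was 2-fold higher at 1.47 and Fzd6 2-fold lower at -1.35, with a list median of 0.073. In CLP, Fzd6 was 2-fold higher at 1.69 and Fzd7 was the lowest at -0.22, with a list median of -0.017, so Fzd6 was lower in SFRP5 LSK and higher in SFRP5 CLP. Fzd6 stood at -0.19 in SFRP5 LSK against 1.17 in WT LSK, and at -0.60 in SFRP5 CLP against -2.28 in WT CLP. Between sorts in WT, Fzd5 (1.77) was 2-fold higher in CLP and Fzd6 (-3.45) and Fzd9 (-3.25) were 2-fold lower. In SFRP5, Fzd5 was the highest (0.34) and Fzd9 (-2.85) was 2-fold lower. Fzd4 was at least 8.04-fold lower in CLP than in LSK in WT, and at least 5.65-fold lower in SFRP5, where 5.99% and 3.23% of genes were 2-fold lower by a bound.

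Of 6 other Wnt receptors, 3 were measured in each comparison, with list medians of -0.29 in LSK and 0.19 in CLP between genotypes. Lrp4, a relative of LRP5 and LRP6 that binds sclerostin, was the lowest in LSK at -0.91 and 2-fold higher in CLP at 1.24. Reck, a membrane-anchored partner in WNT7 signalling, was the highest in LSK at 0.31, and Adgra2, which works with it, the lowest in CLP at 0.13. Between sorts Reck was 2-fold lower in CLP in both genotypes, at -1.30 in WT and -1.41 in SFRP5, and Lrp4 was the highest, at 0.047 in WT and 2.20 in SFRP5.

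The folding and signalosome list holds 24 genes that fold, phosphorylate or bind the co-receptors. In LSK, 21 were measured and 2 were 2-fold higher, with a list median of 0.24. They were Cdk14 at 1.70, a kinase that phosphorylates LRP6, and Caprin2 at 1.20, which binds LRP6. The lowest was Tmem198 at -0.56. Grk5 was not well above background in SFRP5 LSK and was at least 4.0-fold lower there than in WT LSK, as 3.9% of genes were 2-fold lower by a bound. In CLP, 22 were measured, with a list median of 0.072. Dab2, an endocytic adaptor that binds LRP6, was 2-fold higher at 2.57, and Csnk1g2, a casein kinase that phosphorylates it, was 2-fold lower at -1.03. Ccny, the cyclin partner of Cdk14, was at least 3.89-fold lower in SFRP5 CLP than in WT CLP. In that comparison 2.05% of genes were 2-fold lower by a bound. Between sorts in WT, Dvl2 (1.25) and Frat1 (1.23) of 21 genes were 2-fold higher in CLP, and Cdk14 (-1.31) and Csnk1e (-1.08) were 2-fold lower. In SFRP5, Dvl2 (1.33) was 2-fold higher and Cdk14 (-3.14) 2-fold lower. By a bound, Dab2 was at least 2.40-fold higher in CLP in WT and at least 14.3-fold higher in SFRP5. Ccny was at least 3.67-fold higher in CLP in WT, and Grk5 at least 2.61-fold higher in SFRP5. Over all genes, 2.14% in WT and 3.36% in SFRP5 were 2-fold higher by a bound.

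Of 10 canonical target genes, 7 were measured in each genotype comparison and 0 differed 2-fold. Over all genes, 13.8% differed 2-fold in LSK and 8.56% in CLP. A count of 0 among 7 cannot be set apart from these shares. The list median was -0.28 in LSK and 0.17 in CLP. Myc was the highest in LSK at 0.72, and Tnfrsf19, a receptor of the TNF family, the lowest at -0.56. In CLP, Lef1, a transcription factor of the pathway, was the highest at 0.77 and Ccnd1, cyclin D1, the lowest at -0.99. Axin2, a feedback inhibitor and a widely used readout of the pathway, was not well above background in SFRP5 CLP. It was 2.84-fold lower there than in WT CLP, where 2.05% of genes were 2-fold lower by a bound. The Axin2 bound was taken against its own SFRP5 CLP signal. In LSK its leading probe lay the other way, at -3.73 in SFRP5 LSK against -6.90 in WT LSK, where it was not well above background. No bound is given for that pair because a further Axin2 probe was above background in WT LSK. Between sorts, Tnfrsf19 was 2-fold higher in CLP in both genotypes (1.72 in WT and 2.14 in SFRP5). Lef1 was at least 23.3-fold higher in CLP in WT, where 2.14% of genes were 2-fold higher by a bound. In SFRP5 its leading probe stood at 0.24 in CLP and -6.94 in LSK, where it was not well above background. No bound is given for Lef1 in SFRP5 because a further Lef1 probe was above background in SFRP5 LSK. Ccnd1 was the lowest between sorts in both genotypes, at -0.97 in WT and -1.72 in SFRP5, where Myc (-1.03) was also 2-fold lower.

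**Figure D4:**
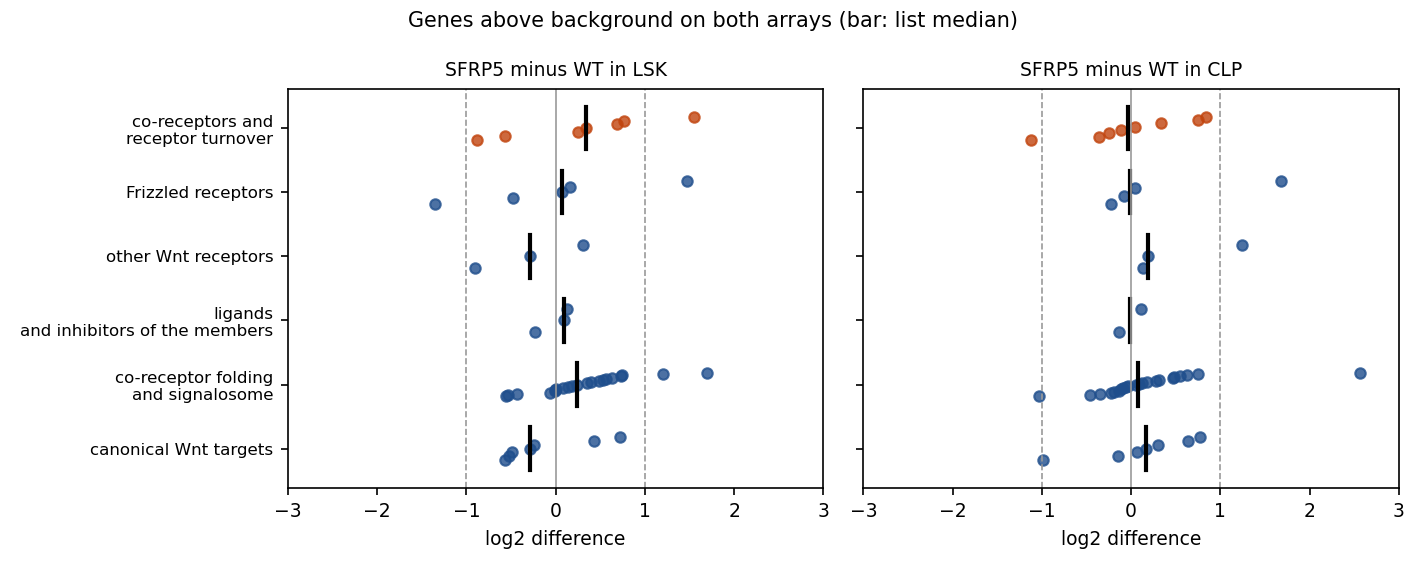
SFRP5 minus WT log2 differences in LSK and in CLP of the genes above background on both arrays, 1 row for the co-receptors and receptor turnover genes and 1 for each of the 5 lists of partners; each point is a gene, spread vertically for legibility, the bar is the list median and dashed lines mark 2-fold. The medians lie between -0.29 and 0.34 in LSK and between -0.040 and 0.19 in CLP.

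The patterns most like those of Lgr4 and Kremen1, the genes with the widest span among those above background on all 4 arrays, were sought among 7682 genes above background on all 4 arrays and bright on average. The measure was the root mean square difference of the 4 levels after each gene's own mean was subtracted. Itpkb (0.096), Dusp1 (0.11) and Snx29 (0.11) were nearest to Lgr4, and 11 genes lay within 0.2. Fem1c (0.045) and Tgfbr3 (0.049) were among the nearest to Kremen1, and 158 genes lay within 0.2, so the Kremen1 pattern was the more common one. With 4 points per gene this is a description of these arrays.

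The differences above shift with the processing. Over 8 settings, the reported one among them, the SFRP5 minus WT difference of Lgr4 in LSK lay between 0.55 and 2.02 and reached 2-fold in 7. That of Znrf3 in CLP lay between -1.12 and -0.54 and reached it in 7. Both genes have 1 probe, so in 1 of those settings, averaging the probes, their value is the reported one by construction. Kremen1 and Ptk7 in LSK were positive in all 8, at 0.56 to 1.08 for Kremen1 and 0.55 to 1.0 for Ptk7. Ptk7 also has 1 probe, so averaging the probes returns its reported value in every comparison. Between sorts in SFRP5, Ptk7 was lower in CLP throughout, at -1.55 to -0.93. The differences of Lgr4, Lgr6 and Kremen1 in CLP between genotypes changed sign in at least 1 alternative.

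**Figure D5:**
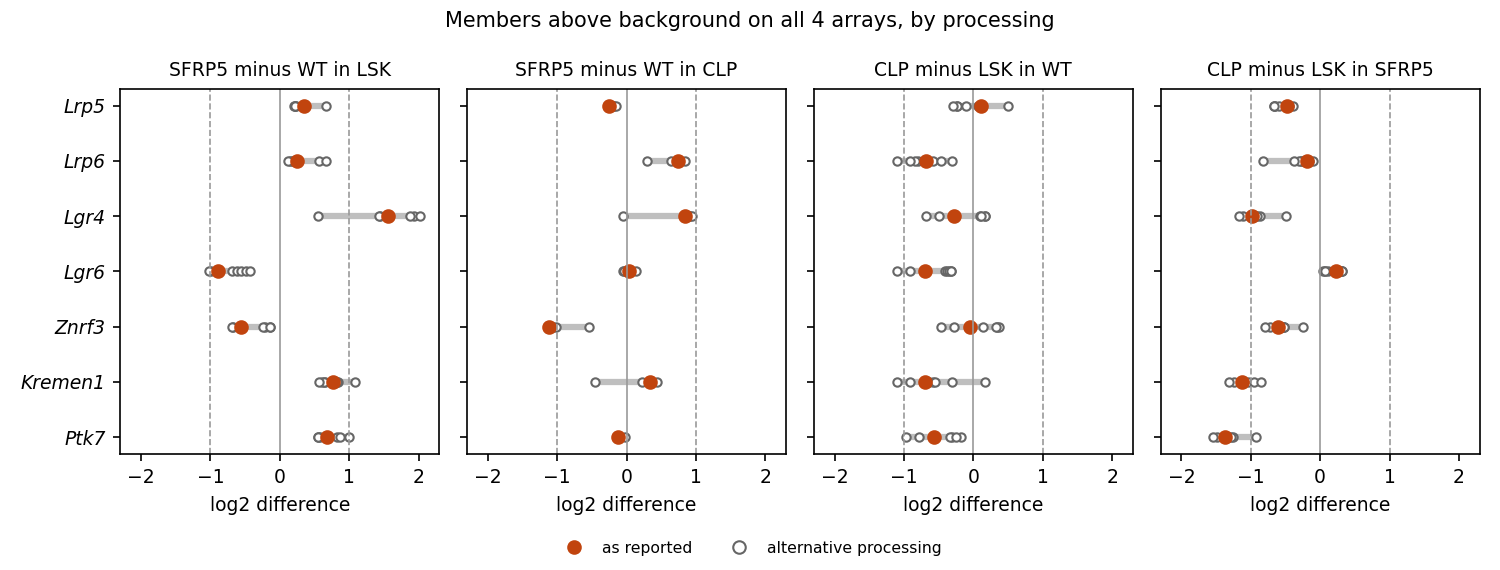
Log2 differences of the 7 genes above background on all 4 arrays in the 4 comparisons, as reported (filled) and under the alternative processing (open), with the grey bar as the range; dashed lines mark 2-fold. Lgr4 in LSK spans 0.55 to 2.02, and Lrp5, Lgr4, Znrf3 and Kremen1 in WT cross 0 between sorts.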

How the data were processed

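RNA of 4 sorted bone marrow samples was hybridised to 4 single-colour arrays, 1 per group, on which the probes are annotated on mm9 per the file headers. By those headers all 4 came from 1 scan, so array position and group cannot be told apart. A few nanograms of column-purified RNA were amplified as whole-transcriptome cDNA and labelled with Cy3, per the labels' protocols. In the deposited scanner files the spot intensity has had background removed and spatial trends taken out, using Agilent Feature Extraction, version 10.10.1.1 in the file headers and 10.10 in the submitters' processing notes. In the authors' deposited table that intensity is multiplied by 1 factor per array, between 4.91 and 6.42, set in a way no source used here describes.

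Here log2 processed intensity minus the array's 75th percentile over non-control spots was used, and no spot was saturated. Between 128 and 160 spots per array carried an outlier flag. They were left out of a probe's average unless all spots of that probe carried it. Spots of a probe were averaged, and the brightest probe of a gene stood for it. Symbols were updated through the Entrez IDs in RefSeq (GRCm38.p6). Differences were taken for genes well above background on both arrays of a pair. A gene above background on 1 array of a pair was given a lower bound against the lowest signal passing the flag, or its own signal where higher. Some probes without the flag lay above that lowest signal, so a bound is not a strict minimum. Bounds and differences were counted at 2-fold. With 1 array per group no test was run, and the spot SD was taken from probes with 3 or more spots.

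Alternatives were quantile and cyclic loess normalization (limma 3.58.1 in R 4.3.3), median centring, another percentile, normexp with an offset of 50, the authors' table, averaging all probes of a gene, and other filters on dim probes. Normexp used the median spot signal, because the mean signal named in the plan is not among the columns used here. Tables were handled in Python 3.11.15 with pandas 2.3.3. The calculation was tested on simulated data. The 10 genes and the lists were chosen with earlier results of these data known. The genes named are all 10 members, the highest and lowest of each list of partners in each comparison, and the 3 nearest patterns of the 2 members with the widest span among those above background on all 4 arrays; genes of a list that were given a bound or that complete a small count were named after their values were seen. Some results are not reported here, among them 1 of the nearest patterns and 1 marker list.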

Additional observations from a re-analysis of the deposited data

Results flagged for a closer look

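The SFRP5 minus WT difference of Lrp5 had opposite signs in the sorts, at -0.25 in CLP and 0.34 in LSK, each larger than 2 spot SDs. The CLP value minus the LSK value was -0.59 (spot SD 0.12), and with 1 array per group the difference was not tested.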

How the results depend on the processing

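No paired analysis was possible because each group has 1 array and the labels carry no replicate numbers. Of 239 values of single genes under the alternatives, 149 moved by less than the spread between replicate spots and 90 by more, and of 86 summary values 30 moved by more than that spread or, for counts, by more than 1.5 times. No alternative reversed a difference past 2-fold, and 7 of 35 differences changed sign, all of them under 2-fold as reported. Members at 2-fold in LSK between genotypes numbered 1 as reported, 3 with median centring, 0 with normexp, 2 with the authors' table and 2 with no filter on dim probes. In CLP they numbered 1, then 0 with normexp and 3 with no filter. Between sorts in WT they numbered 0, then 3 with the authors' table and 3 with no filter. Between sorts in SFRP5 they numbered 2, then 0 with normexp, 3 with the authors' table, 3 with the percentile over detected probes, 1 with the mean of probes and 5 with no filter. The median difference in LSK (0.34) became 0.21 with cyclic loess, 0.66 with median centring, 0.56 with the mean of probes and 0.11 with no filter. The median between sorts in WT (-0.56) became -0.31 with quantile, -0.34 with cyclic loess, -0.18 with median centring, -0.78 with the percentile over detected probes, -0.25 with normexp, -0.98 with the authors' table, -0.27 with the mean of probes and -0.16 with no filter. That in SFRP5 (-0.60) became -0.45 with normexp, -0.79 with the authors' table, -0.82 with the mean of probes and -0.33 with no filter. The median span of a gene over the 4 arrays (1.17) became 1.39 with the percentile over detected probes, 0.55 with normexp and 1.48 with the authors' table. The median of all genes, near 0 as reported, became 0.34 in LSK, 0.39 between sorts in WT and 0.10 in SFRP5 with median centring, -0.11, -0.40 and -0.16 with the authors' table, and -0.21 between sorts in WT with the percentile over detected probes. These scalings add 1 constant per array, so the members' median less that of all genes (0.32 in LSK, -0.58 and -0.63 between sorts in WT and SFRP5) is the same by construction. In LSK it was 0.15 with quantile, 0.13 with cyclic loess, 0.29 with normexp and 0.56 with the mean of probes. Between sorts in WT it was -0.37, -0.39, -0.31 and -0.28 in the same order. Between sorts in SFRP5 it was -0.65, -0.62, -0.42 and -0.84. By the looser flag for a positive and significant signal, 8 genes were above background in SFRP5 LSK, 9 in WT LSK, 10 in SFRP5 CLP and 10 in WT CLP. The share of all genes by that flag was not counted. Apart from the normexp offset, which shrinks differences between dim signals by construction, the cause of these shifts with the processing was not tested. Signal near background limits Lgr4, Znrf3, Ryk and Rnf43.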

Other observations

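Kremen1 and Znrf3 are neighbouring protein-coding genes on chromosome 11 (RefSeq, GRCm38.p6). Their SFRP5 minus WT differences had opposite signs in LSK, at 0.76 for Kremen1 and -0.56 for Znrf3, and in CLP, at 0.33 and -1.12, although the Kremen1 value in CLP depended on the probe. The genotype difference in CLP minus that in LSK was 0.92 for Lgr6 (spot SD 0.36), -0.80 for Ptk7 (spot SD 0.20) and 0.50 for the leading probe of Lrp6 (spot SD 0.14), whose further probe lay the other way, with genotype differences of -0.15 in CLP and 1.08 in LSK. These differences between differences were not tested.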
